A study of Arabidopsis thaliana with 8 samples.

Results

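Arabidopsis seedlings that had been starved of sulfate and then given it back for 3 h were compared with seedlings that had never lacked it, to describe which transcripts were still away from the full-nutrition state and which had passed it. The comparison was between 4 of the 8 ATH1 arrays of the series: those labelled 3 h S and FN in experiments 1 and 2. Each 3 h S array was set against the FN array of its own experiment. The fit that gave the p-values used all 8 arrays. All groups were whole 9-day-old Col-0 seedlings shaken in liquid culture under constant light. FN seedlings grew throughout in full-nutrition medium with 3 mM sulfate. The 3 h S seedlings grew in 150 µM sulfate medium, spent 48 h without sulfate, received 500 µM sulfate and were harvested 3 h later. The -S seedlings, harvested after the 48 h without sulfate, and the 30' S seedlings, harvested 30 min after resupply, are given beside them to show where a transcript came from. Each condition had 1 array in each experiment (n = 2). The p-values measure how unevenly the differences between conditions repeated from experiment to experiment, pooled over all 4 conditions. The shift shared by all arrays of an experiment was taken out.

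The groups differed in more than the 3 h of sulfate. By the study's media list, the sulfate-free medium in which the 3 h S seedlings stayed also held less nitrate and ammonium salt than FN medium and had chloride salts where FN medium had sulfates. The resupplied flasks were opened for the addition and harvested 3 h after the FN flasks. These differences cannot be told apart from the history of starvation in a comparison with FN. The potassium chloride controls of the study were not analysed here.

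Plants take up sulfate through SULTR transporters, activate it with ATP sulfurylase, reduce it through APS reductase and build it into cysteine, from which methionine, glutathione and the sulfur-rich glucosinolates follow. When sulfate runs short, uptake and reduction genes are raised together with a set of markers such as *SDI1* and *LSU1*, while glucosinolate synthesis is turned down. *SDI1* encodes a repressor of glucosinolate synthesis, and *LSU1* belongs to a family of short proteins found through their induction by sulfur shortage.

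The deposited values are MAS5 signals, brightness on a linear scale with the same trimmed mean of 99.4 on every array. Array medians lay between 41.9 and 47.6, and the floor below which a signal counts as not detected between 10.9 and 20.3. A probe set was called when the adjusted p of limma (Benjamini-Hochberg, fitted across 17138 probe sets on log2(signal + 16) with the experiment as a block) was under 0.05. The log2 values below are on this scale, which understates changes of dim probe sets, and "fold" is used for the plain ratio of signals within an experiment. Where both arrays of the dimmer condition were below the floor, an "at least" fold is given, the geometric mean over both experiments with the dim signals set to the floor of their array, which either experiment alone can fall short of. Among the 4 arrays the distance between 3 h S and FN was larger in experiment 1, where the median size of the log2 ratio was 0.45, than in experiment 2, where it was 0.19.

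After 3 h of sulfate 96 of 17138 probe sets (0.560%) were called away from FN. Of these, 71 (0.414%) were higher and 25 (0.146%) lower, against a median log2 value of 0.04 over all probe sets tested. All 96 had the same sign in both experiments. By the fold rule, a ratio past 2-fold in both experiments with the higher signal above the floor, 193 of 22746 probe sets (0.849%) were higher and 81 (0.356%) lower. Past 5-fold were 39 higher (0.171%) and 4 lower (0.0176%). The calls depended on all arrays being kept: leaving out either 3 h S array left 0 calls, leaving out an FN array left 277 (FN of experiment 1) or 4639 (FN of experiment 2), and the methods' t-test (heteroscedastic, two-sided) left 0 after adjustment. At unadjusted p under 0.05 it gave 265 higher and 114 lower.

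**Figure D1:**
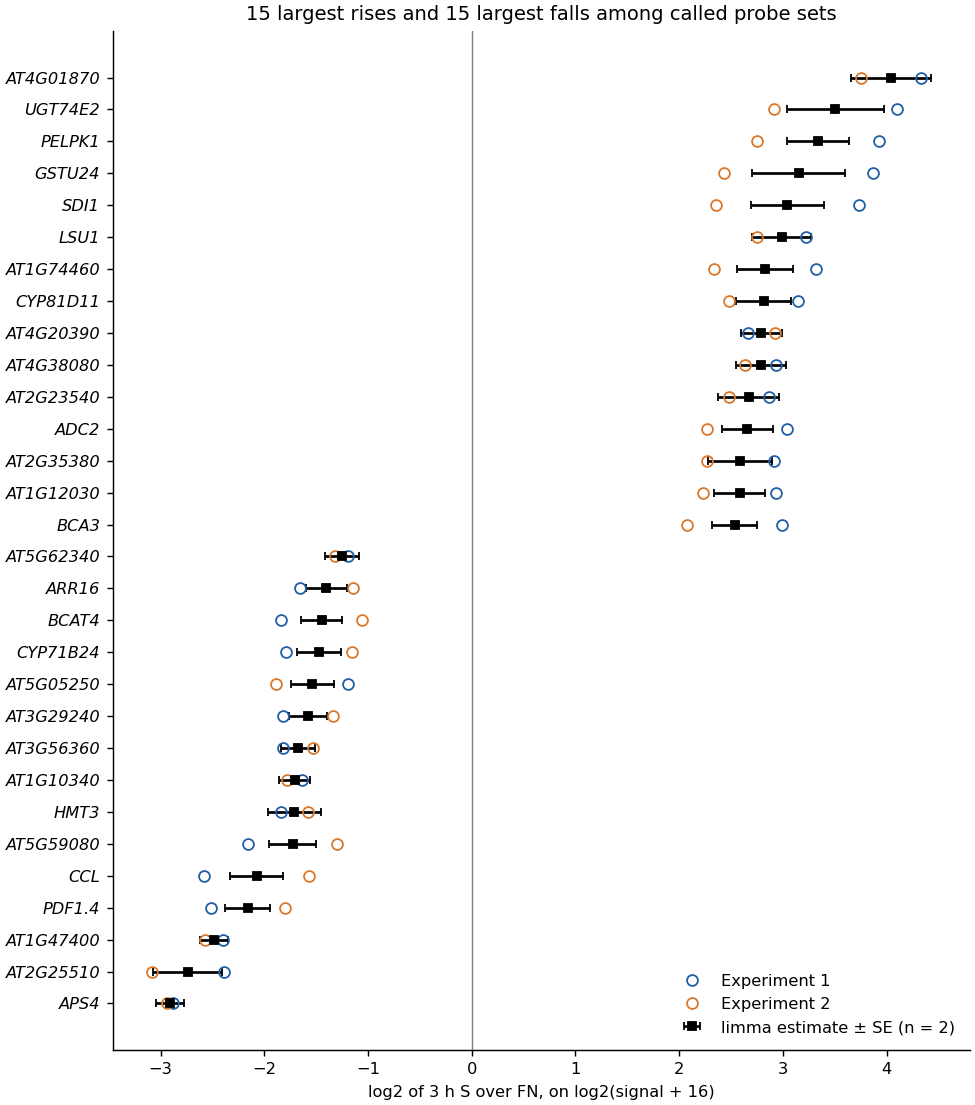
Log2 value of 3 h S over FN for the 15 largest rises and 15 largest falls among called probe sets of 1 gene. Black squares with bars are the limma estimate ± SE (n = 2 arrays a condition) and open circles the value of each experiment on log2(signal + 16). Every circle lies on the same side of 0 as its square, and the rises run from 2.54 to 4.04 and the falls from -1.25 to -2.91.

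The called probe sets were grouped by their level in -S, which shares the FN arrays with 3 h S over FN, so that the grouping is a description and not a second test. Among those higher than FN, 56 were also higher in -S by a log2 value of at least 1, and 15 were not. Among those lower, 19 were also lower in -S by at least 1 and 6 by less. No called probe set lay on the other side of FN in -S by 0.5 or more. The raised group of 56 had a median log2 value of 2.11 in -S over FN and of 2.04 in 3 h S over FN. In 3 h S over -S, 10 of these 56 fell, and none rose.

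The 10 that fell within 3 h without reaching FN included several sulfur starvation markers. *SDI1* gave signals of 4.7 and 18.0 in FN, 3847 and 2912 in -S, 1550 and 849 at 30 min and 259 and 158 at 3 h (experiments 1 and 2). It fell by 3.94 on the log2 scale from -S and was still 55.1- and 8.77-fold above FN (log2 3.04 ± 0.35 SE, limma adjusted p = 0.026), with 1 of the 2 FN arrays below its floor. The FN and 3 h S arrays did not overlap.

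*LSU1* showed the same course. Its signals were 5.2 and 16.5 in FN, 2223 and 1746 in -S, and 182 and 203 at 3 h, a log2 value of 2.99 ± 0.29 over FN (adjusted p = 0.013 by limma). The FN signal of experiment 1 lay below its floor. *GGCT2;1*, a ChaC-like enzyme of glutathione breakdown, went from 26.0 and 11.2 in FN to 2799 and 2065 in -S and back to 97.2 and 48.4. That left it 3.74- and 4.32-fold above FN (log2 1.34 ± 0.15), the FN signal of experiment 2 lying below its floor. All 7 low-sulfur and OAS markers tested lay above FN in both experiments, 3 of them called, with a median log2 value of 1.34. Of these 7, 6 were named through the study's tables. Many genes there are held for a rise in -S, so the direction is in part fixed by the naming. *LSU2* was at log2 1.65 ± 0.29 (adjusted p = 0.070 by limma) and *SDI2* at 0.20 ± 0.21. Of all probe sets tested, 34.3% lay above FN in both experiments and 0.414% were called higher.

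**Figure D2:**
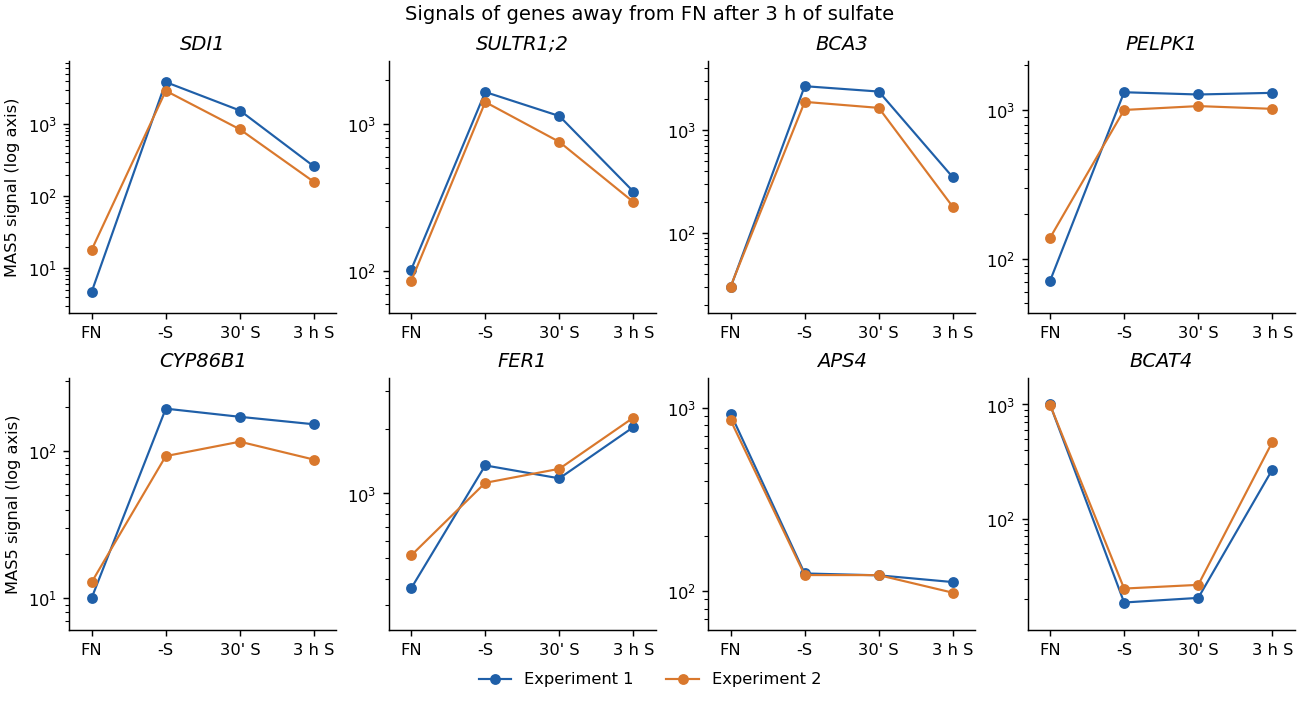
MAS5 signals (log axis) of 8 genes called away from FN at 3 h S, in the 4 conditions of experiment 1 (blue) and experiment 2 (orange), 1 array a point. *SDI1*, *SULTR1;2* and *BCA3* fell from -S and stopped above FN, *PELPK1*, *CYP86B1* and *APS4* stayed near their -S level, *FER1* was highest at 3 h S, and *BCAT4* came back to 270 and 470 against 1003 and 996 in FN.

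Among sulfate transporters, the root importers stayed high. *SULTR1;2*, the main importer of the root, gave signals of 102 and 85.2 in FN, 1653 and 1413 in -S, and 347 and 295 at 3 h. It was thus 3.40- and 3.46-fold above FN after 3 h (log2 1.62 ± 0.15). *SULTR1;1*, the high-affinity importer, had FN signals of 10.4 and 15.8, of which the first was below the floor, and 3 h S signals of 90.5 and 159 (log2 2.23 ± 0.17). Both had an adjusted p of 0.013 by limma. Of the 7 transporters tested, 2 rose above FN and none fell, with a median of 0.82, against 0.414% higher and 0.146% lower over all probe sets tested. These 7 were also named through the study's tables, many of whose genes are held for a rise in -S, so the direction of the list is in part fixed by the naming. The vacuolar exporter *SULTR4;2* was at log2 0.82 ± 0.22 and the vascular *SULTR2;1* at 0.22 ± 0.24, neither of them called. *SULTR2;1* lay above FN in experiment 1 (269 against 177) and below it in experiment 2 (166 against 181).

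*BCA3*, a beta carbonic anhydrase, and *ADC2*, arginine decarboxylase of polyamine synthesis, behaved alike. *BCA3* signals of 29.5 and 30.1 in FN stood against 347 and 179 at 3 h (log2 2.54 ± 0.22), after 2670 and 1879 in -S. *ADC2* signals were 83.4 and 164 in FN, 2596 and 2484 in -S, and 804 and 855 at 3 h (log2 2.66 ± 0.25). The remaining genes that fell from -S but stayed called above FN were *DHAR2*, a dehydroascorbate reductase, at log2 1.01 ± 0.14, AT1G12030 at 2.58 ± 0.25 and AT4G31330 at 2.13 ± 0.20. *BGLU28* and *BGLU30*, glucosidases of glucosinolate breakdown, had been among the most raised transcripts. They gave 86.0 and 25.0 and 76.8 and 22.2 at 3 h, and both FN arrays were below the floor. That was at least 3.01-fold and at least 2.68-fold above FN, with adjusted p = 0.070 and 0.080 by limma. In the list of sulfur release and starvation-raised enzymes 1 of 6 was called, all 6 lay above FN in both experiments, and the median was 1.36. Over all probe sets tested, 0.414% were called higher and 34.3% lay above FN in both experiments. Of the 6, 5 were named through the study's tables, which hold many genes for a rise in -S, so their direction is in part fixed.

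In the reduction pathway 6 of 7 members tested were not called. The APS reductases gave log2 values over FN of 0.66 ± 0.15 (*APR1*), -0.11 ± 0.14 (*APR2*) and 0.40 ± 0.37 (*APR3*), although each had been 1.99 or more above FN in -S. *APR2* signals at 3 h were 272 and 264 against 334 and 253 in FN, so that the groups overlapped. The ATP sulfurylase *APS3* was at 0.09 ± 0.15, the sulfite reductase *SIR* at 0.52 ± 0.14 and the serine acetyltransferase *SERAT2;1* at 0.79 ± 0.20. Methionine gamma-lyase, *MGL*, which degrades methionine, was at 0.05 ± 0.27 with signals of 48.6 and 55.1 against 41.6 and 58.1. None of these was called, and with 2 arrays a condition differences larger than their standard errors of 0.14 to 0.37 remain possible. For *APR1*, *APS3*, *SIR* and *SERAT2;1* both 3 h S signals were above both FN signals, and for *APR2*, *APR3* and *MGL* the groups overlapped.

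*APS4*, another ATP sulfurylase, was the exception and the largest fall of the whole comparison. Its FN signals of 928 and 854 stood against 125 and 122 in -S, 122 and 122 at 30 min and 112 and 97.9 at 3 h. The log2 value over FN was -2.91 ± 0.13 (adjusted p = 0.0018 by limma), and in 3 h S over -S it was -0.21. Of 7 sulfate assimilation genes tested, *APS4* alone was called. Of the others, 5 lay above FN in both experiments, against 34.3% of all probe sets tested. The study's tables gave 4 of the 7 their name and hold many genes for a rise in -S, so the direction is in part fixed by the naming.

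The other 46 of the raised group of 56 were not called in 3 h S over -S. *PELPK1* gave signals of 70.8 and 138 in FN, 1319 and 1002 in -S, 1274 and 1064 at 30 min and 1307 and 1020 at 3 h. It was at log2 3.34 ± 0.30 over FN and at 0.01 over -S. Its relative *PELPK2* was at 2.38 ± 0.24 over FN. The largest rise of all was that of AT4G01870, described in the study as a tolB protein-related gene, with 5.8 and 41.1 in FN, 305 and 216 in -S and 422 and 756 at 3 h (log2 4.04 ± 0.38), of which 1.09 lay between -S and 3 h S. *GSTU24*, a glutathione transferase, was at 3.15 ± 0.45. For AT4G01870 and *GSTU24* the FN signal of experiment 1 lay below its floor. *UGT74E2*, a glucosyltransferase, and *CYP81D11*, a cytochrome P450, were below the floor on both FN arrays and at least 16.7-fold and at least 8.27-fold higher at 3 h.

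Suberin genes formed a further part of the raised group. Suberin is the waxy polyester that seals root endodermis and periderm, built from fatty acids by elongases, P450 hydroxylases, acyltransferases and reductases and carried out by ABCG transporters. Of 15 members tested 6 rose, *GPAT5*, *FAR4*, *CYP86B1*, *KCS2*, *ABCG6* and *ABCG20*, against 0.414% of all probe sets tested. All 15 lay above FN in both experiments, against 34.3% of all, with a median log2 value of 1.67. All 15 got their name through the study's tables, which hold many genes for a large rise in -S, so that their direction is in part fixed by how they were named. The same 15 had medians of 1.59 in -S over FN and -0.18 in 3 h S over -S.

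*CYP86B1*, a very-long-chain fatty acid hydroxylase, gave 10.0 and 12.8 in FN, 195 and 92.7 in -S, and 153 and 87.7 at 3 h (log2 2.27 ± 0.25). *GPAT5*, an acyltransferase, gave 18.3 and 25.9 in FN and 123 and 88.7 at 3 h (1.67 ± 0.25), and *ABCG6*, a transporter, 16.7 and 37.6 and 245 and 195 (2.49 ± 0.31). All 3 showed no overlap between FN and 3 h S, with the FN signal of experiment 1 below its floor in each. *MYB93*, a root endodermal transcription factor of this list, was at 2.02 ± 0.35 and *CYP86A1* at 2.46 ± 0.42, with adjusted p = 0.067 and 0.065 by limma. The list had been chosen with earlier results of these arrays known, and in whole seedlings more cells of a type and more RNA per cell cannot be told apart. The root hair marker *EXPA7* gave 51.1 and 136 in FN and 69.8 and 151 at 3 h (log2 0.25 ± 0.17), and the leaf marker *RCA* 1251 and 2148 in FN and 1045 and 1871 at 3 h (-0.23 ± 0.16). These were the only markers of 6 root and 5 shoot markers with a probe set named here.

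The iron storage gene *FER1*, a ferritin, moved further from FN after resupply. Its signals were 360 and 513 in FN, 1353 and 1122 in -S, 1177 and 1304 at 30 min and 2043 and 2262 at 3 h. The log2 value was 1.48 in -S over FN and 2.28 ± 0.19 in 3 h S over FN (adjusted p = 0.013 by limma), while 3 h S over -S, at 0.80, was not called (adjusted p = 0.131). Of the 4 iron genes tested the other called member was AT1G47400, which fell. It gave 168 and 143 in FN, 24.7 and 14.9 in -S and 18.9 and 10.9 at 3 h (log2 -2.48 ± 0.14, adjusted p = 0.0032 by limma). Only *APS4* and AT1G47400 remained called when either 30' S array was left out.

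For nitrogen genes the difference in nitrogen salts between the media and the history of starvation cannot be told apart. *AMT1;2*, an ammonium importer, rose from 58.9 and 106 in FN to 302 and 290 at 3 h (log2 1.71 ± 0.21), and was at 252 and 318 in -S. Of 6 nitrate and ammonium genes tested, 1 was called and 2 lay above FN in both experiments, against 0.414% and 34.3% of all probe sets tested. All 6 were named through the study's tables, many of whose genes are held for a rise in -S, so their direction is in part fixed. The nitrate importer *NRT2.1* went opposite ways: it was 13.2-fold above FN in experiment 1 and at 0.759 of FN in experiment 2, where its FN signal was 180 against 45.2 in experiment 1. Glutaredoxin genes of the nitrate-regulated class had the lowest median of the lists with 3 or more members, -0.997, but 2 of 4 members lay above FN in experiment 2, and none was called. AT4G15680 for example had FN signals of 89.4 and 25.0 and 3 h S signals of 3.7 and 34.6.

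The genes held below FN were fewer. Of the 19 lower in both -S and 3 h S, *BCAT4* alone rose from -S to 3 h S. *PDF1.4*, a plant defensin, had 84.8 and 85.3 in FN and was below the floor on both 3 h S arrays, at least 5.67-fold lower. *CCL* went from 1033 and 1065 in FN to 316 and 525 in -S and 160 and 348 at 3 h (log2 -2.07 ± 0.26). AT2G25510 fell by 2.74 on the log2 scale (SE 0.33), with FN signals of 348 and 2421 that differed several-fold between the experiments themselves.

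*ARR16*, a type-A response regulator of cytokinin signalling, gave 263 and 176 in FN and 72.6 and 70.8 at 3 h (log2 -1.40 ± 0.20, adjusted p = 0.043 by limma). The other type-A members tested, *ARR5* and *ARR6*, were at -0.12 ± 0.15 and 0.55 ± 0.26. *TRXF2*, a chloroplast thioredoxin, fell by 1.21 on the log2 scale. *HMT3*, a homocysteine methyltransferase that makes methionine, was at -1.71 ± 0.25, with 1 of the 2 3 h S arrays below its floor, and was the call nearest the limit of the 15 falls named (adjusted p = 0.0496 by limma).

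An overshoot required a called probe set to have been on the other side of FN in -S by at least 0.5 (log2). None met this rule. Some called higher at 3 h had been below FN in -S by less, such as AT2G18900 (log2 -0.21 in -S over FN, 1.32 in 3 h S over FN). Of 23 genes tested in the 3 lists of glucosinolate synthesis, 16 had fallen in -S over FN. At 3 h, 13 lay above FN in both experiments and 6 below it, 1 was called lower and none higher, and the median log2 value was 0.33. Of all probe sets tested, 34.3% lay above FN in both experiments and 27.7% below it, and 0.146% were called lower. The study's tables gave 19 of the 23 their name and hold many genes for their response in -S, so the list is not an even sample.

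**Figure D3:**
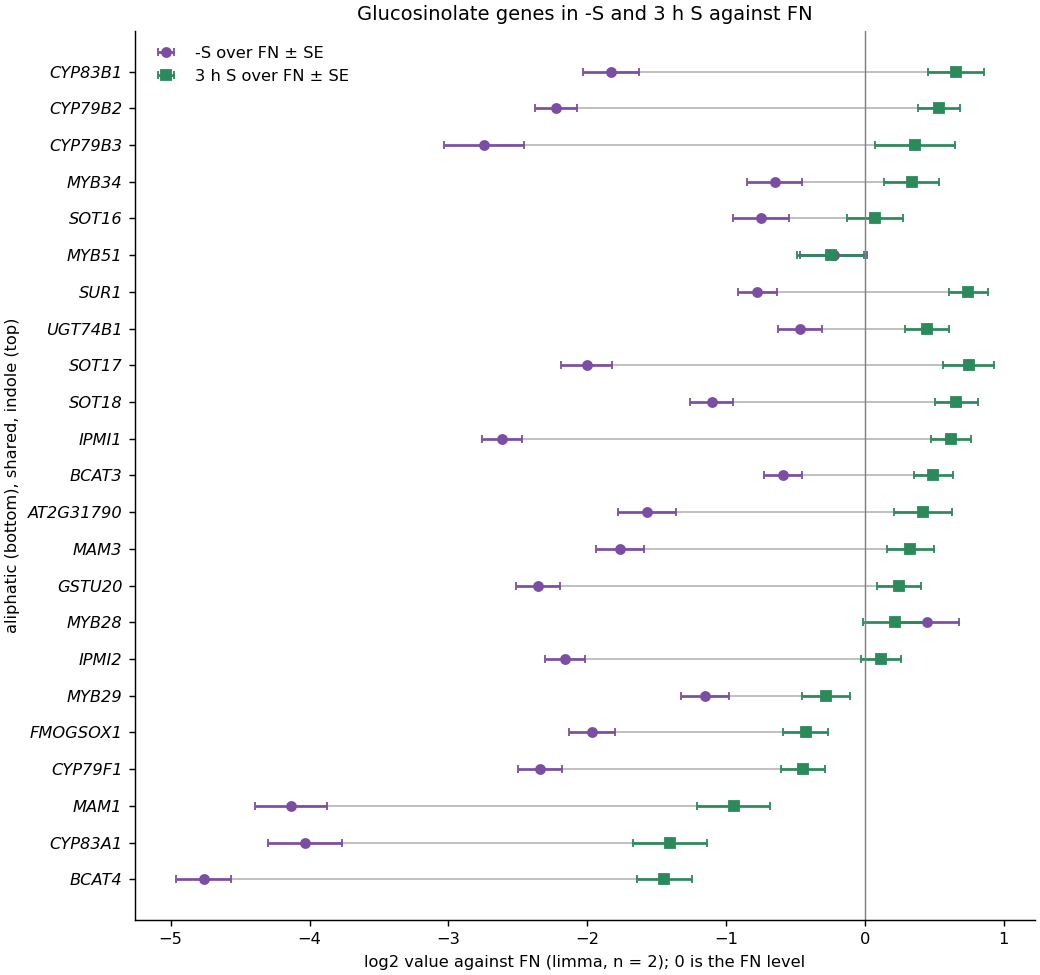
Log2 values against FN (limma ± SE, n = 2 arrays a condition) of 23 glucosinolate genes in -S (purple circles) and 3 h S (green squares), with aliphatic genes at the bottom, the shared steps above them and indole genes at the top. FN is at 0. The purple and green points use the same FN arrays. Most green squares lie within 0.75 of FN, while *BCAT4*, *CYP83A1* and *MAM1* lie at -1.45, -1.40 and -0.95.

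Of the aliphatic branch, 3 steps were farthest below. *BCAT4*, the aminotransferase that opens methionine chain elongation, gave 1003 and 996 in FN, 18.5 and 24.5 in -S and 270 and 470 at 3 h (log2 -1.45 ± 0.20, adjusted p = 0.039 by limma). *CYP83A1*, which oxidises aliphatic aldoximes, gave 769 and 682 in FN and 188 and 368 at 3 h (-1.40 ± 0.27, adjusted p = 0.080). *MAM1*, a chain-elongating synthase, was at -0.95 ± 0.26. FN and 3 h S signals of all 3 did not overlap, but *BCAT4* alone passed the test.

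Other steps stood on the upper side of FN without being called. FN and 3 h S signals of *SUR1*, *SOT17*, *SOT18*, *IPMI1*, *CYP79B2* and *PAPST1* did not overlap, and those of *CYP83B1* did. *SUR1*, the C-S lyase shared by both branches, gave 278 and 243 in FN, 139 and 152 in -S and 443 and 449 at 3 h. It was 1.59- and 1.85-fold above FN (log2 0.74 ± 0.14, adjusted p = 0.080 by limma). The sulfotransferases of the last step were at 1.72- and 1.75-fold (*SOT17*, 0.75 ± 0.18) and at 1.69- and 1.51-fold (*SOT18*, 0.66 ± 0.16). *IPMI1*, an isomerase of chain elongation, was at 0.62 ± 0.14, and of the indole branch *CYP83B1* was at 0.65 ± 0.20 and *CYP79B2* at 0.53 ± 0.15. *PAPST1*, a carrier of the sulfate donor PAPS, gave 96.3 and 104 in FN, 52.8 and 60.4 in -S and 154 and 174 at 3 h (0.63 ± 0.13, adjusted p = 0.092 by limma). With the FN array of experiment 2 left out, which rests the comparison on experiment 1, the overshoot class held 20 probe sets, *SUR1*, *SOT17*, *SOT18*, *IPMI1*, *CYP83B1* and *PAPST1* among them. With that of experiment 1 left out it held 3, *SUR1*, *CYP79B3* and AT3G22660.

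In the other direction 1 probe set past 2-fold below FN in both experiments had been at least 0.5 above it in -S. AT2G15830 gave 21.3 and 49.3 in FN, 46.9 and 75.2 in -S and 7.5 and 22.4 at 3 h (log2 -0.72 ± 0.15), and it was not called (adjusted p = 0.092 by limma).

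A further group was above FN at 3 h without having been called away from it in -S. Of the 15 called probe sets that were higher than FN at 3 h but not by 1 or more in -S, 12 were within 0.5 of FN in -S. In 3 h S over -S, 9 of the 15 were called higher. That uses the same 3 h S arrays by which they were chosen, so it is in part fixed and no separate support. Among the 12, 7 have a gene name or locus, and they were chosen for description after their values were seen. *NRPA2*, the second-largest subunit of RNA polymerase I, which transcribes ribosomal RNA, gave 171 and 132 in FN, 221 and 156 in -S, 210 and 155 at 30 min and 396 and 270 at 3 h. It was 2.31- and 2.04-fold above FN (log2 1.04 ± 0.13, adjusted p = 0.032 by limma).

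The other 6 are loci with no role given in the sources used here, and they followed the same course. AT3G18600 gave 227 and 191 in FN, 204 and 150 in -S and 530 and 443 at 3 h (log2 1.16 ± 0.14). AT2G18900 gave 40.0 and 43.5, 33.1 and 34.6 and 133 and 123 (1.32 ± 0.13), and AT3G10530 70.1 and 56.4, 67.3 and 42.4 and 158 and 178 (1.22 ± 0.18). AT4G28450, AT1G51380 and AT1G06720 were at 1.03, 1.03 and 0.96. In each of the 7, both 3 h S arrays were above all FN, -S and 30' S arrays, which is in part fixed by how they were chosen.

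**Figure D4:**
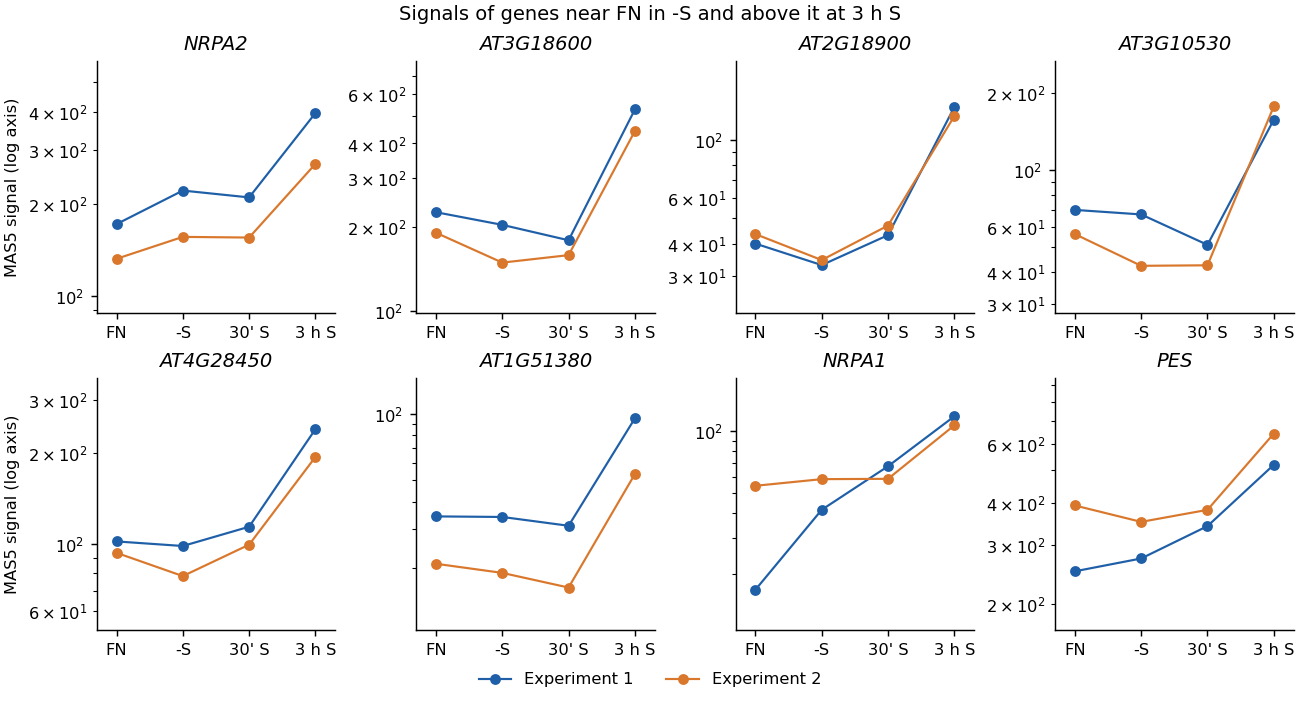
MAS5 signals (log axis) in the 4 conditions of experiment 1 (blue) and experiment 2 (orange), 1 array a point, for 6 called genes that were near FN in -S and for *NRPA1* and *PES*, which were not called. In all 8 panels the 3 h S point is the highest of its experiment, and for *NRPA1* the FN signal of experiment 1, 16.8, lies below its floor.

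Because of *NRPA2*, 7 genes of nucleolar RNA polymerase, nucleolin and rRNA processing with a named probe set were listed after the values were seen, which bars any test of the list. All 7 lay above FN in both experiments, and the median log2 value was 0.85, against 0.08 in -S over FN. The 1 called was *NRPA2* itself, which prompted the list and is counted in these values. Over all probe sets tested, 34.3% lay above FN in both experiments and 0.414% were called higher. *NRPA1*, the largest subunit of RNA polymerase I, went from 16.8 and 54.1 in FN to 118 and 107 (log2 1.42 ± 0.30, adjusted p = 0.098 by limma). *PES*, the pescadillo protein of ribosome assembly, went from 250 and 393 to 519 and 643 (0.85 ± 0.16, adjusted p = 0.074). *NUC-L2*, a nucleolin, was below the floor on both FN arrays and at least 2.15-fold higher at 3 h, with a name that came from a table of genes raised in -S.

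Anthocyanin genes had a median of 1.44, and none was called. That median is the value of the MYB regulator *PAP2* (SE 0.99), which went opposite ways. It was 87.8-fold above FN in experiment 1 and at 0.435 of FN in experiment 2, with the dimmer signal below its floor each time. Of the 11 tested, 8 lay above FN in both experiments, against 34.3% of all probe sets tested. The study's tables gave 6 of the 11 their name and hold many genes for a rise in -S, so the direction is in part fixed by the naming. Highest were the MYB regulator *PAP1* (at least 5.42-fold above FN, with adjusted p = 0.085 by limma) and the late enzyme *DFR* (log2 2.24 ± 0.40, adjusted p = 0.071). *DFR* signals were 20.9 and 31.6 in FN and 257 and 128 at 3 h, without overlap. Of 7 jasmonate genes none was called, and the median was 0.39. The median raw log2 ratio was 1.325 in experiment 1 and -0.0222 in experiment 2. All 7 were named through the study's tables, many of whose genes are held for a rise in -S. *LOX2*, a lipoxygenase of jasmonate synthesis, was at 0.87 ± 0.25 and *AOC1* at -0.08 ± 0.18. Outside that list, and not to be counted with it, *OPR2*, an oxophytodienoate reductase named through the study's tables, was called higher (1.63 ± 0.24).

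The 3 photosystem genes with a probe set named here were below FN in both experiments, as were 27.7% of all probe sets tested. Their median was -0.82, and none was called. *LHCB4.1* of the light-harvesting antenna, for example, gave 2319 and 1862 in FN and 940 and 1447 at 3 h. Medians without a call were 0.88 for 3 hypoxia genes, 0.48 for 4 touch and general stress genes, 0.51 for 2 senescence markers and 0.10 for 2 phosphate starvation genes. The experiments differed: in experiments 1 and 2 the median raw log2 ratios were 2.39 and 0.17 (hypoxia), 0.91 and 0.34 (stress), 1.94 and -0.40 (senescence) and 0.53 and -0.21 (phosphate). Among the hypoxia genes 2 lay above FN in both experiments and 1 below. *GI* alone of the clock genes had a probe set named here (0.36), at 1.97 of FN in experiment 1 and 0.881 in experiment 2. The 2 housekeeping controls had a median of -0.06. The methionine and polyamine lists held 1 called member each, *HMT3* lower among 5 and *ADC2* higher among 3.

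**Figure D5:**
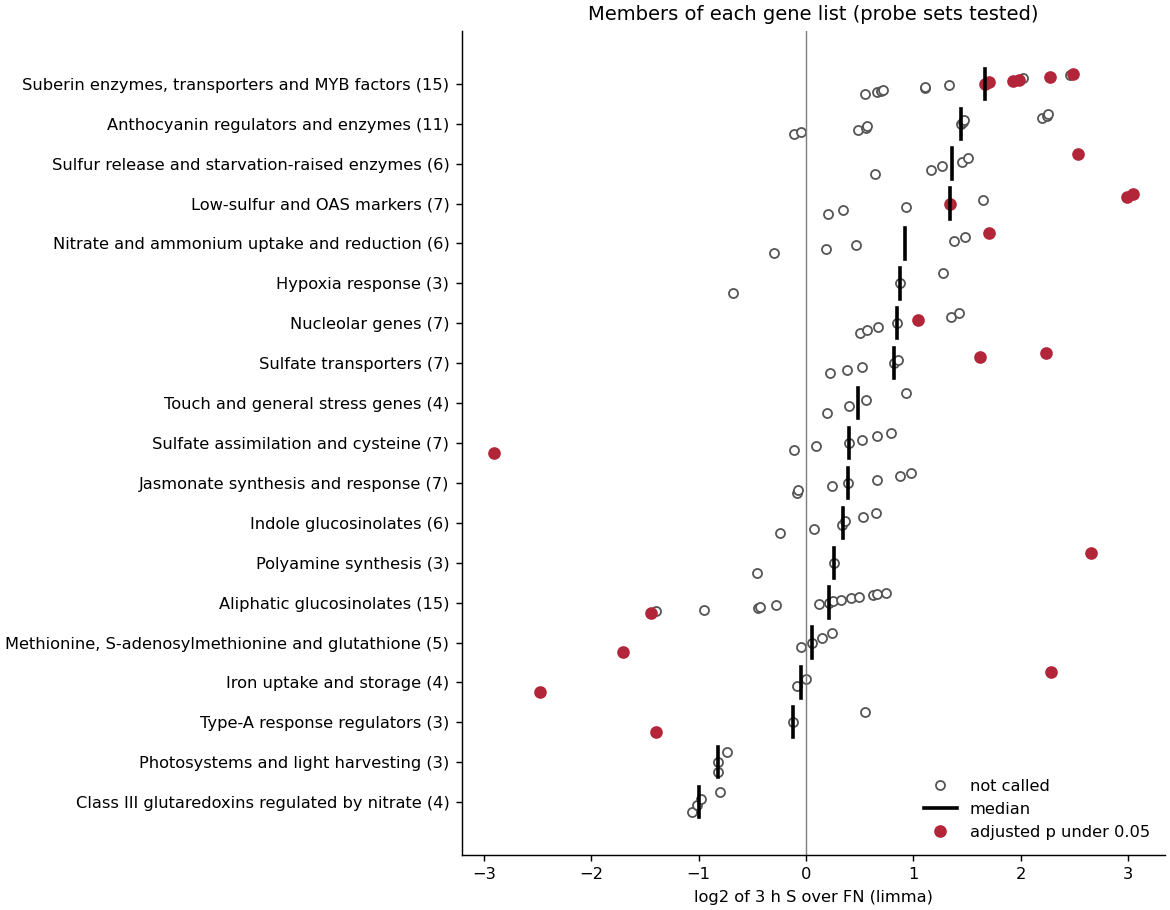
Log2 value of 3 h S over FN (limma) for the tested members of each list with at least 3 of them, their number in parentheses. Filled red points were called, open points were not, and bars are list medians, from 1.67 for suberin genes to -0.997 for the glutaredoxins. The line at 0 is the FN level.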

How the data were processed

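Total RNA of Col-0 seedlings had been hybridised to 8 ATH1 arrays, 1 for each of 4 conditions in 2 experiments, named by the sample titles. The authors deposited each array as intensity, on a linear scale, after scaling by their MAS5 software. Its settings were not given in the sources used here. Each array's floor is the signal at the absent share of its detection calls. Probe sets that reached the floor on 2 or more of 8 arrays (17138 of 22746) were tested with limma 3.58.1 in R 4.3.3 (lmFit, eBayes) on log2(signal + 16), with all 4 conditions, the experiment as a block, 3 residual and 4 prior degrees of freedom and Benjamini-Hochberg adjustment at 0.05. The titles number the experiments, and experiment 1 minus experiment 2 correlated with r = 0.22 between FN and 3 h S across probe sets.

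The step was tested on simulated data. The platform annotation named 1 gene for 13513 probe sets and the study's tables for 807, many held there for a large rise in -S, with 31 conflicts. For 503 several genes were given and for 7923 none, so lists are incomplete. "At least" folds set signals below the floor to the floor of their array and are geometric means over both experiments. The named genes are the 15 largest rises and 15 largest falls of 1 gene, and list members. The rule's 10 largest overshoots had no member. Members and lists were chosen with earlier results of these data known. No sequence was used here, and tables and figures were made with Python 3.11.15 and matplotlib 3.10.9. Alternatives covered the block, offset, floor, filter, scaling, trend, each array left out and the methods' t-test (heteroscedastic, two-sided).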

Additional observations from a re-analysis of the deposited data

How the results depend on the processing

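The number of arrays limits every count. The signs of the 96 calls were unchanged in every alternative in which they were tested. The filter on FN and 3 h S arrays tested 95 of them. All had been called on these same arrays with the same sign in both experiments. The unchanged signs, here and for the named calls below, are therefore no separate support. Counts higher and lower, 71 and 25 as reported, were 18 and 4 without the replicate block, 42 and 8 with the FN and 3 h S arrays only, 29 and 7 with an offset of 1, 109 and 33 with signals raised to the floor, and 0 and 2 with no filter. The methods' t-test gave 265 and 114 at unadjusted p under 0.05 and 0 and 0 after adjustment. At unadjusted p under 0.05 limma gave 3192. With 1 array left out in turn they ran from 0 to 2652 higher and from 0 to 1987 lower, the lone array being assumed to vary like the others: omitting a 3 h S array gave 0 and 0, a 30' S array 0 and 2, a -S array 27 and 7 (the same whichever experiment it came from), the FN array of experiment 1 154 and 123, and its counterpart of experiment 2 2652 and 1987.

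The classes moved with them. Held above FN were 56, against 17 without the replicate block, 28 with an offset of 1, 0 with no filter and 0 to 786 with 1 array left out. Held below were 19, against 4, 7, 2 and 0 to 817, and 29 with signals raised to the floor. The 15 other higher were 1, 1, 0 and 0 to 1850, and 30 with signals raised to the floor. The 6 other lower were 0, 0, 0 and 0 to 1166. The overshoot class was empty except for 3 and 20 without an FN array (0 to 20). With the FN and 3 h S arrays only, the classes have no value.

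By the fold rule, with no floor, 419 were higher and 243 lower past 2-fold (193 and 81 as reported), and 72 and 25 past 5-fold (39 and 4). Experiment 1 alone gave 1587 and 1280 past 2-fold and 271 and 185 past 5-fold, experiment 2 alone 332 and 278, and 52 lower past 5-fold. List medians were recomputed only under median centring, quantile normalization and no replicate block, and none moved by more than the spread between experiments. Dropping the block cannot change these medians, and no array was left out for the lists.

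Of 58 called genes named, 292 of 464 calls were lost with 1 array left out and 173 of 522 under the other alternatives, with no sign changed. Among 40 not called, the sign turned in 12 of 320 values with 1 array left out. Their ranges were -0.19 to 0.64 (*SULTR2;1*), -0.24 to 0.0129 (*APR2*), -0.19 to 0.99 (*APR3*), -0.11 to 0.51 (*SDI2*), -0.31 to 0.41 (*MGL*), -0.35 to 3.31 (*NRT2.1*) and -0.19 to 0.91 (*CYP79B3*), the ends being values with 1 of the FN arrays left out, and -0.0319 to 0.21 (*APS3*), -0.33 to 0.17 (*AOC1*) and -0.27 to 0.026 (*ARR5*, 0.0003 without FN of experiment 1), the ends being values with 1 of the 3 h S arrays left out. *MGL* was at -0.16 without 3 h S of experiment 2.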
